A study of Homo sapiens with 2 samples.

Results

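The collagens, the enzymes that process them and the main glycoproteins of the interstitial matrix were described in H460 cells, which come from a large-cell carcinoma of the human lung, with and without overexpression of PKP2. Members were all protein-coding genes with counts whose symbol is that of a collagen chain, a prolyl 4-hydroxylase alpha subunit (P4HA), a lysyl hydroxylase (PLOD), a lysyl oxidase (LOX, LOXL), a fibrillin (FBN), a fibulin named FBLN or a thrombospondin (THBS), together with FN1, SPARC and SERPINH1. Of 69 such genes 56 had counts, out of 22965 genes in all. The other 13 were not analysed here: COL1A2, COL2A1, COL5A3, COL6A5, COL6A6, COL9A1, COL10A1, COL11A1, COL17A1, COL25A1, FBLN2, SPARC and THBS2. RNA-seq was done on 1 library of cells carrying the pSin-puro vector and 1 library of cells in which pSin-puro delivered PKP2 (plakophilin 2, a desmosomal plaque protein), both at passage 5 in DMEM with serum. The comparison asked which genes lie downstream of PKP2. Each group has 1 library, so no difference could be set against a spread between replicates. Ratios are therefore described by their size, as log2 of the PKP2 library over the vector library in CPM (counts normalised to the scaled library size), with 95% intervals that cover counting error only.

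Collagens are trimers of chains wound into a helix, in which glycine recurs once in each triplet of residues. Fibrillar collagens build banded fibres, type IV and type VIII collagens build sheets and lattices, and other families decorate fibrils, anchor basement membranes or span the cell membrane. In the endoplasmic reticulum, prolyl and lysyl hydroxylases modify the chains and the chaperone SERPINH1 (HSP47) binds the folded helix, while lysyl oxidases crosslink the secreted fibres. Most interstitial collagen in lung comes from fibroblasts, and epithelial cells make mainly the type IV chains of basement membrane. In cultured cells with RNA from a whole population, fewer cells expressing a gene and less RNA per cell cannot be told apart.

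The vector library held 23513304 counts and the PKP2 library 20319137. PKP2 itself had 181 and 1330 counts, in the direction of the labels. Of the epithelial markers KRT8, KRT18 and KRT19 had between 3795 and 16537 counts in each library, EPCAM had only 28 and 16, and CDH1 was not analysed here. Of 10 fibroblast markers 6 had counts, summing to 1256 with vector and 612 with PKP2. Most of that sum was COL3A1 and COL1A1, which are members here. Of the others, PDGFRB had 111 and 208 counts, LUM 24 and 22, POSTN 10 and 0 and THY1 6 and 1. DCN, PDGFRA, COL1A2 and FAP were not analysed here. The endothelial markers with counts, VWF and KDR, summed to 4 and 0. Of the leukocyte markers CD68, also present in lysosomes of other cells, had 362 and 412 counts, CD14 had 90 and 23 and LYZ 4 and 0.

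Of the 56 members 45 had a mean of at least 10 counts. Among these, 8 were at least 2-fold lower in the PKP2 library, 17.8% of them, where 4.61% of all 15991 genes at that level were. Only COL8A1 was at least 2-fold higher, 2.22% of the members beside 2.47% of all such genes, and 36 were within 2-fold. The lower genes were the fibrillar collagens COL1A1, COL3A1 and COL24A1, the fibril-associated COL9A3 and COL16A1, the multiplexins COL15A1 and COL18A1, and THBS1. At 1.5-fold, 18 of the 45 members were lower (beside 12.9% of all genes) and 4 higher (beside 6.87%). The counting interval lay wholly below 0 in 21 members (46.7%, beside 28.8%) and wholly above 0 in 11 (24.4%, beside 25.9%). The median ratio was -0.29 over the members and -0.03 over all genes. Below 0 lay 32 members (71.1%, beside 52.7% of all genes), and 13 lay above. The members' median was -0.06 after a correction for GC content, and -0.09 over those averaging at least 100 counts. The 26 measured collagen chains had a median of -0.75 with 22 below 0 (84.6%). The 19 enzymes, chaperones and glycoproteins had a median of -0.00 with 10 below 0 (52.6%), near the share of all genes. After the GC correction the median was -0.30 over the collagen chains and 0.11 over the other members, beside -0.01 over all genes. COL9A3, COL16A1, COL18A1 and THBS1 share exon positions with a gene on the opposite strand, and reads of such genes cannot be told apart where strand was not used. Of the 8 lower genes, COL3A1 alone stayed past 2-fold with 1 CPM added to both libraries, and 4 of them stayed so after the GC correction, given further on. Among the 29 members averaging at least 100 counts, 2 were at least 2-fold lower (6.90%, beside 1.8% of all such genes).

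**Figure D1:**
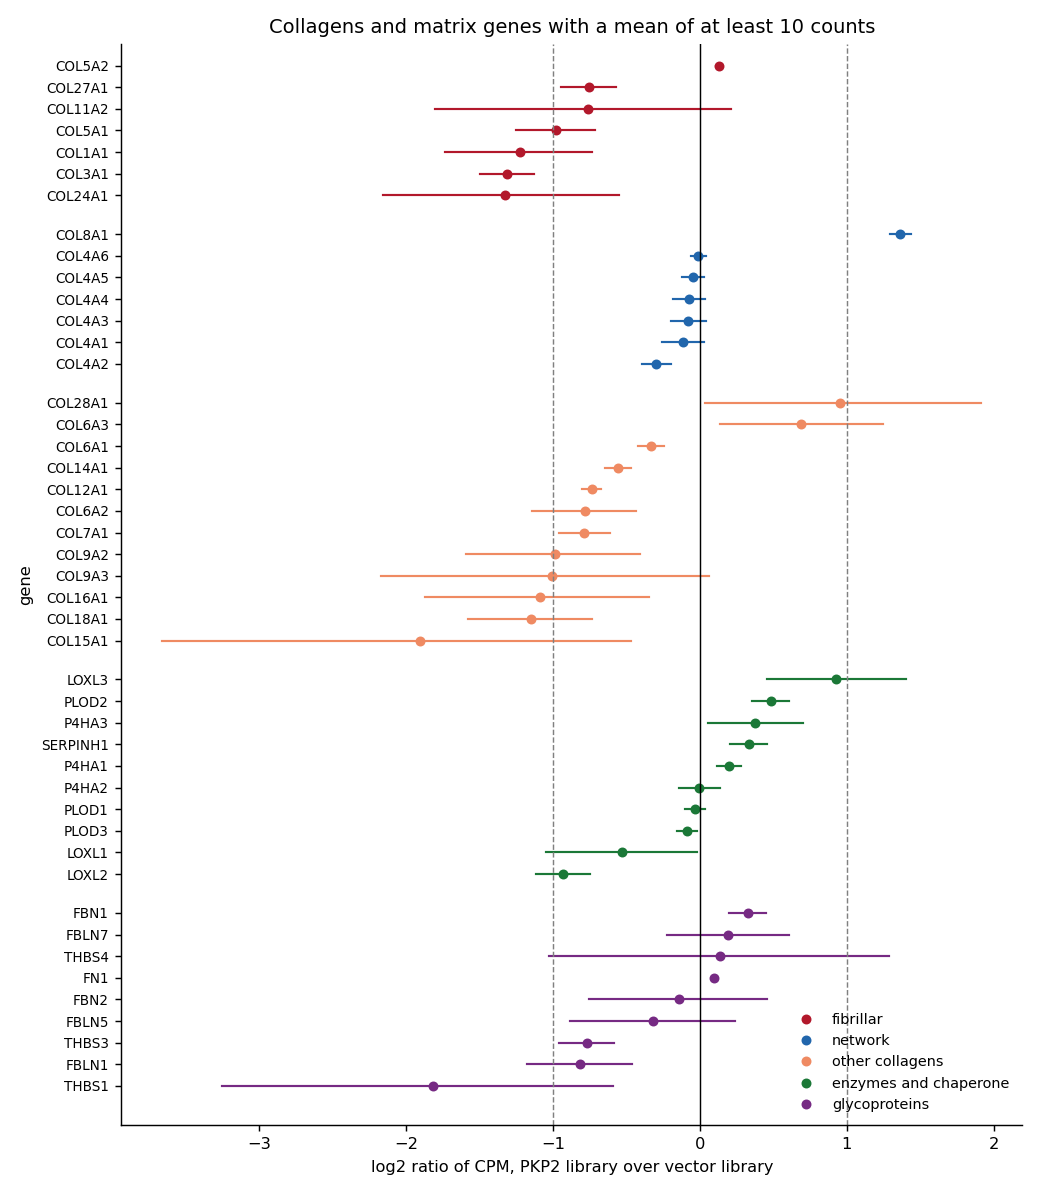
Log2 ratio of CPM in the PKP2 library over the vector library (x axis) for the 45 members with a mean of at least 10 counts (y axis), 1 library per group. Points are ratios, bars are 95% counting intervals, colours are the classes and dashed lines mark 2-fold. All fibrillar chains but COL5A2 lie left of 0, the type IV chains lie close to 0 and COL8A1 lies at 1.37.

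The matrix RNA of these cells was dominated by fibronectin and 1 collagen chain. FN1 (ENSG00000115414), the fibronectin gene whose product links integrins to collagen, had 135527 counts with vector and 123047 with PKP2. COL5A2 (ENSG00000204262), the alpha 2 chain of type V collagen, had 76524 and 70960. Together they held 80.9% of all member counts with vector and 82.8% with PKP2. All members together took 1.11% and 1.15% of the counts of the libraries. Per kilobase of transcript FN1 stood at 723 and 774 CPM per kb, rank 59 and 54 among the genes with a known transcript length, and COL5A2 at 455 and 498 CPM per kb, rank 115 and 86. Next in level per length came PLOD3 (59.6 and 56.2), PLOD1 (53.3 and 52.1), COL4A6 (47.1 and 46.8) and P4HA1 (35.7 and 41.0 CPM per kb). COL8A1 went from 16.0 to 41.2 CPM per kb, about level with P4HA1 in the PKP2 library and below it in the vector library. The transcript lengths are those of a later annotation, so levels per length are approximate.

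**Figure D2:**
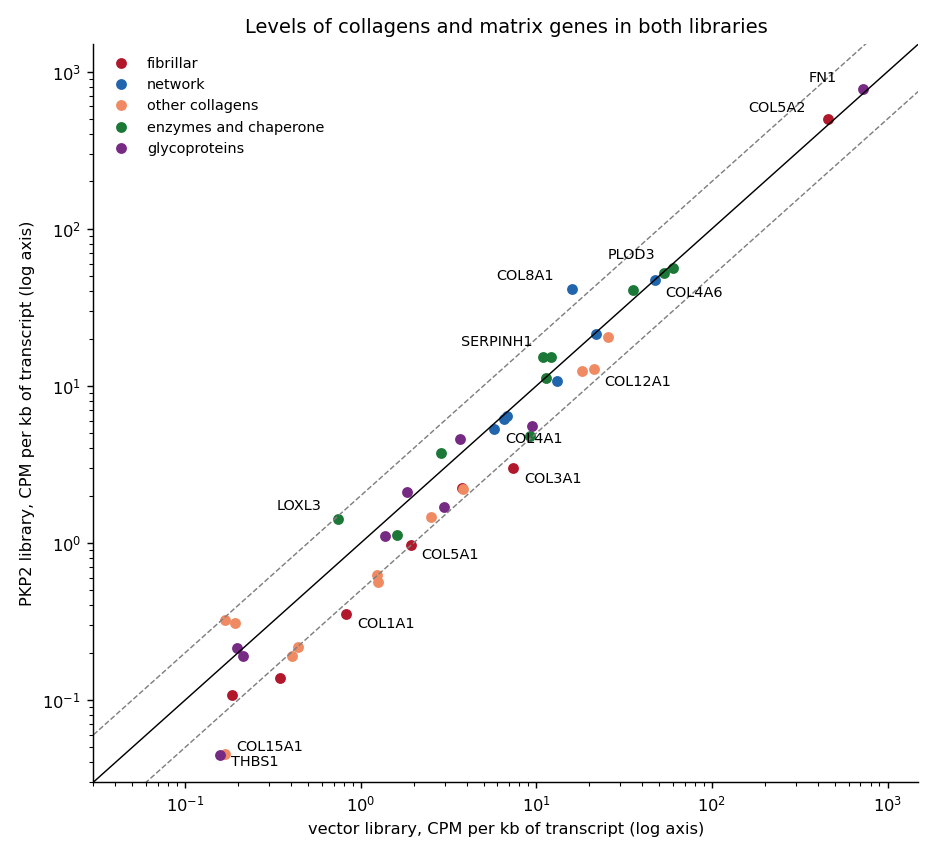
CPM per kilobase of transcript in the vector library (x axis, log scale) and the PKP2 library (y axis, log scale) for the 45 measured members, 1 point per gene. The solid line marks equal levels and the dashed lines 2-fold. FN1 (723 and 774) and COL5A2 (455 and 498 CPM per kb) stand above all other members, and COL8A1 (16.0 and 41.2) lies above the upper dashed line.

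Of the fibrillar collagens 7 were measured, 3 were at least 2-fold lower (beside 4.61% of all genes) and 6 had ratios below 0 (beside 52.7%), with a class median of -0.98. After the GC correction 2 of the 7 were at least 2-fold lower (beside 3.49% of all genes). The exception was COL5A2, with a ratio of 0.13 (interval 0.11 to 0.14). COL3A1 (ENSG00000168542), the chain of the homotrimeric type III collagen of soft tissue, had 973 counts with vector and 333 with PKP2, 2.48-fold lower (interval 2.19 to 2.82). It was the only member lower by at least 2-fold over the whole of its counting interval. COL1A1 (ENSG00000108821), the major chain of type I collagen, had 132 and 48 counts and a log2 ratio of -1.22 (interval -1.73 to -0.74). COL24A1 (ENSG00000171502), a fibrillar chain described in developing bone and cornea, had 56 and 19 counts and a log2 ratio of -1.32 (interval -2.16 to -0.55). COL5A1 (ENSG00000130635), the partner of COL5A2 in type V collagen, had 386 and 166 counts and a ratio of -0.98, just within 2-fold. COL27A1, a fibrillar chain of cartilage, had 698 and 351 counts and a log2 ratio of -0.76 (interval -0.94 to -0.57). COL11A2, with 28 and 14 counts, had the same ratio of -0.76 and an interval that takes in 0. Apart from COL5A2, the most abundant chain, at 1.09-fold higher, 3 of the 6 other fibrillar chains were thus at least 2-fold lower and 3 were within 2-fold with ratios below 0. Of the 4 fibroblast markers outside the collagens, PDGFRB was higher with PKP2 (1.14) and LUM was near 0 (0.11). POSTN (10 and 0 counts) and THY1 (6 and 1 counts) had fewer counts with PKP2 but fell under the mean of 10 counts, and the interval of THY1 took in 0. Whether cells with these markers had a part in the ratios of the fibrillar chains was not tested.

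The pairs of fibrillar chains differed widely in level. COL5A1 and COL5A2 combine in the common form of type V collagen, which holds more alpha 1 than alpha 2 chain. The level per length of COL5A2 was 237 times that of COL5A1 with vector and 511 times with PKP2. The log2 ratio of COL5A2 was 1.11 above that of COL5A1 (counting interval 0.84 to 1.38). COL3A1 is the neighbour of COL5A2 on chromosome 2, with the 3′ ends of the genes facing each other, and no exon positions are shared. The ratio of COL5A2 was 1.44 above that of COL3A1 (interval 1.26 to 1.62), a pair chosen after the values were seen.

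Collagen genes carry the glycine repeat in their sequence, as GGN once in each triplet of codons. The longest run of such codons was 338 in COL1A1, COL5A1 and COL11A2, 339 in COL5A2 and 343 in COL3A1, the unbroken helix of a classical fibrillar collagen, and 216 in COL24A1 and 217 in COL27A1. The start of the run is shown for 3 fibrillar genes that differ in base composition, COL24A1, which was at least 2-fold lower, and COL5A1 and COL27A1, which had ratios below 0 within 2-fold. Each line gives 90 bases of coding sequence from GENCODE release 29, with the glycine codon that opens each triplet in capitals.
COL5A1: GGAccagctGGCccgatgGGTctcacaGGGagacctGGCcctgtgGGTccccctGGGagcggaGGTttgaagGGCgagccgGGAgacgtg
COL27A1: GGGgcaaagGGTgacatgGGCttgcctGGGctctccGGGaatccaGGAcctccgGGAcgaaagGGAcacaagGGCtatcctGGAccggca
COL24A1: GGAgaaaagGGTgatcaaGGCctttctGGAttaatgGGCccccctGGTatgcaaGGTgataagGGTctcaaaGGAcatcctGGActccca
The third base of the triplet-opening glycine codons in the run was G or C in 47.6% of them in COL5A1, 53.9% in COL27A1 and 24.1% in COL24A1. The whole transcripts had a GC content of 60.3%, 61.3% and 45.1%. COL5A2, whose ratio was above 0, had 29.2% such codons and a transcript GC content of 47.9%, and COL3A1 had 22.2% and 52.1%. Across the 26 measured collagens the share of G or C at this base and transcript GC content had a Pearson correlation of 0.77 and a Spearman correlation of 0.76, as a description, since the run is part of the transcript.

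Of the network-forming collagens, type VIII chain COL8A1 was higher and the 6 type IV chains were near 0, with a class median of -0.07 over 7 measured genes. COL8A1 (ENSG00000144810), whose product forms lattices under endothelium and around vessels, had 2165 counts with vector and 4737 with PKP2. It was 2.58-fold higher (interval 2.45 to 2.71), a ratio of 1.37, and its whole interval lay beyond 2-fold. Its partner COL8A2 had only 7 and 3 counts. The type IV chains, which make the sheet of basement membranes, ran from COL4A6 at -0.01 to COL4A2 at -0.29. COL4A2 (ENSG00000134871), with 2031 and 1405 counts, was the only type IV chain whose interval (-0.39 to -0.20) left out 0, and after the GC correction its ratio was 0.09. COL4A6 had 7348 and 6197 counts, COL4A5 3350 and 2753, COL4A4 1546 and 1246, COL4A3 1303 and 1048, and COL4A1 906 and 712. The chains of kidney and other specialised membranes, COL4A3 to COL4A6, stood at 6.78, 6.50, 22.0 and 47.1 CPM per kb with vector. COL4A1 and COL4A2, the chains of nearly all basement membranes, stood at 5.77 and 13.2 CPM per kb.

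The type IV genes lie in 3 pairs with their starts facing away from each other, and each pair shares its promoter region. In the RefSeq table (build GRCh38.p14, used for these sequences only) 126 bases lie between the starts of COL4A1 and COL4A2, 418 between those of COL4A3 and COL4A4, and 379 between those of COL4A5 and COL4A6. Shown are the bases between COL4A1 and COL4A2 on the strand of COL4A2 (chr13:110307158-110307283, plus strand), and the 250 bases before the start of COL4A3 (chr2:227164374-227164623, plus strand) and of COL4A5 (chrX:108439588-108439837, plus strand). Capitals mark GGGCGG (the Sp1 box) and CCAAT on both strands, and TATAAA on the gene's strand.
COL4A1-COL4A2: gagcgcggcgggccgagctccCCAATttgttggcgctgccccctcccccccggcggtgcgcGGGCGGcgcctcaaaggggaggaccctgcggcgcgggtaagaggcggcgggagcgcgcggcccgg
COL4A3: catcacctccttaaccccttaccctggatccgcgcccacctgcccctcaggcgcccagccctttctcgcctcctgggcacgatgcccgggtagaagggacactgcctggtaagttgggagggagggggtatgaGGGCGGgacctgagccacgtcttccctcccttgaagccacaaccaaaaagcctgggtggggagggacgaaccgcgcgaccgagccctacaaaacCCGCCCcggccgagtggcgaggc
COL4A5: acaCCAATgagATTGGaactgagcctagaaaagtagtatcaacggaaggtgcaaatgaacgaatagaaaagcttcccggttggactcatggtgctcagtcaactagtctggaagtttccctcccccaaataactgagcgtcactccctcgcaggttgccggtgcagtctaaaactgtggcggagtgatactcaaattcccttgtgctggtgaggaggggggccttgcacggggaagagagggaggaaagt
Ratios within each pair were close. The ratio of COL4A4 minus that of COL4A3 was 0.00 (counting interval -0.16 to 0.16), and that of COL4A6 minus COL4A5 was 0.04 (interval -0.05 to 0.13). COL4A2 lay 0.18 below COL4A1 (difference -0.18, interval -0.36 to -0.01). Levels per length were nearly equal in COL4A3 and COL4A4 (6.78 and 6.50 CPM per kb in the vector library), while COL4A6 stood 2.15 times above COL4A5 and COL4A2 2.28 times above COL4A1. The pair of COL4A3 and COL4A4 was added after the values were seen.

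**Figure D3:**
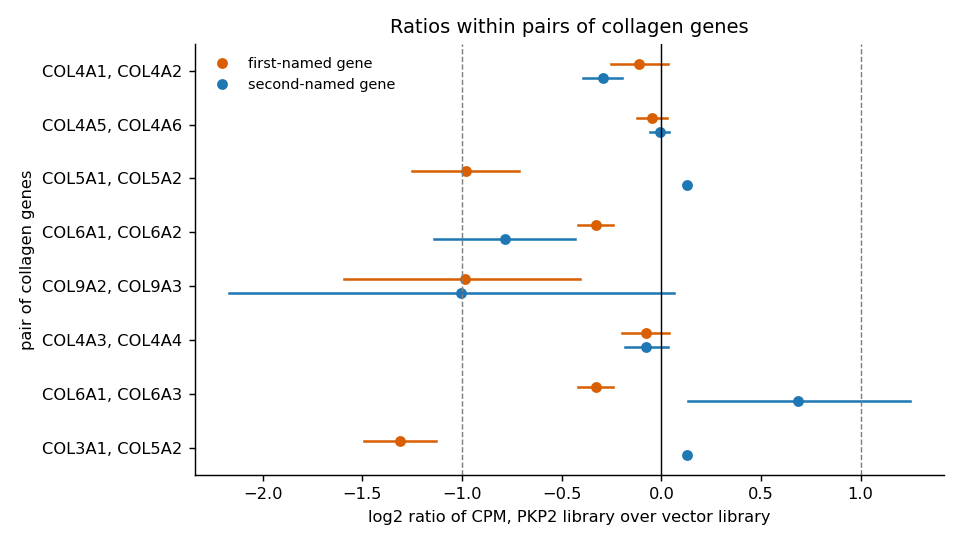
Log2 ratio of CPM in the PKP2 library over the vector library (x axis) for pairs of collagen genes (y axis), 1 library per group. Points are ratios and bars 95% counting intervals, orange for the first-named and blue for the second-named gene, with dashed lines at 2-fold. The type IV pairs lie together near 0, COL9A2 and COL9A3 lie together near -1, and COL5A1 and COL3A1 lie apart from COL5A2.

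The promoter of FN1, the most abundant member, is shown for comparison (chr2:215436069-215436318, minus strand, GRCh38.p14, 250 bases before the start), with the same motifs in capitals. It holds several overlapping GGGCGG matches and a CCAAT match.
FN1: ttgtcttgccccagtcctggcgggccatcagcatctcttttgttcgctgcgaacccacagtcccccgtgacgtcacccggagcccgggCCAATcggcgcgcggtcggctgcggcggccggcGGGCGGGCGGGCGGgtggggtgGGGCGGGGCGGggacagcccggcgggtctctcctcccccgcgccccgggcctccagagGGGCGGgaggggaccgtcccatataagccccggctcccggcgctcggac
Of the 56 members, 45 had a promoter entry in RefSeq. COL1A1, COL3A1, COL5A2, COL6A1, COL8A1, COL9A3, COL14A1, COL20A1, COL22A1, LOXL2 and P4HA3 had none. In the 250 bases before the start, 29 of the 45 (64.4%) held GGGCGG on either strand, beside 42.3% of the 27305 genes of the table. Those 27305 genes were not filtered by gene type or by counts, while the members are protein-coding genes with counts. CCAAT on either strand was found in 13 (28.9%, beside 33.0%) and TATAAA on the gene's strand in 3 (6.67%, beside 7.17%). These matches describe the sequence and are not evidence of binding.

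Of the collagens outside these classes 12 were measured, 4 lay at least 2-fold lower (beside 4.61% of all genes) and 0 lay as far above (beside 2.47%). Ratios below 0 were found in 10 of the 12 (beside 52.7%), and the median was -0.79. After the GC correction 1 of the 12, COL15A1, was at least 2-fold lower (beside 3.49% of all genes). The fibril-associated collagens, which coat the surface of fibrils, were below 0 in all 5 measured members (beside 52.7% of all genes). COL12A1 (ENSG00000111799) had 5895 and 3005 counts and a log2 ratio of -0.74 (interval -0.80 to -0.67). COL14A1 (ENSG00000187955), a related regulator of fibril diameter, had 2798 and 1615 counts and a log2 ratio of -0.56 (interval -0.65 to -0.47). Both have GC-poor transcripts (46.3% and 46.7%), and after the GC correction their ratios were -0.80 and -0.61. In the GC-rich COL7A1 and COL6A2, described further on, the correction took the ratios from -0.79 to -0.28 and from -0.78 to -0.21. COL16A1 had 55 and 22 counts and a log2 ratio of -1.09 (interval -1.87 to -0.35). The type IX chains COL9A2 and COL9A3, cartilage collagens that share a trimer, had 84 and 36 and 26 and 11 counts. They were 1.98-fold and 2.01-fold lower, on either side of the 2-fold threshold, and the interval of COL9A3 took in 0.

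The multiplexins, basement membrane collagens whose ends yield the antiangiogenic fragments restin and endostatin, were lower. COL18A1 (ENSG00000182871) had 175 and 67 counts, 2.22-fold lower (interval 1.66 to 2.98), and COL15A1 had only 22 and 5 counts and a log2 ratio of -1.90 (interval -3.66 to -0.46). COL18A1 shares exon positions with SLC19A1 on the opposite strand, which had a ratio of -0.32. On either strand, 14.8% of the 31-base stretches of COL18A1 occur in another gene with counts, a share that can include this overlap. COL7A1, the anchoring fibril collagen of stratified epithelium, had 837 and 412 counts and a log2 ratio of -0.79 (interval -0.96 to -0.61). COL28A1 had 17 and 28 counts and a log2 ratio of 0.96 (interval 0.04 to 1.92).

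The type VI chains, which assemble as COL6A1, COL6A2 and COL6A3 into beaded filaments, differed in both level and ratio. COL6A1 (ENSG00000142156) had 2581 and 1743 counts and a log2 ratio of -0.33 (interval -0.42 to -0.24), which became 0.12 after the GC correction. COL6A2, its neighbour on chromosome 21, had 207 and 102 counts and a log2 ratio of -0.78, and lay 0.45 below COL6A1 (difference -0.45, interval -0.82 to -0.09). COL6A3 had 49 and 67 counts and a log2 ratio of 0.69 (interval 0.13 to 1.25). Per length COL6A1 stood at 25.7 CPM per kb in the vector library, 10.2 times COL6A2 and 134 times COL6A3. In the PKP2 library these multiples were 14.0 and 66.0. COL6A3 was the only type VI chain with a ratio above 0, with a difference from COL6A1 of 1.02 (interval 0.46 to 1.59) that was added after the values were seen.

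Collagen members under a mean of 10 counts were COL8A2, COL13A1, COL19A1, COL20A1, COL21A1, COL22A1, COL23A1 and COL26A1, with between 1 and 14 counts in a library. COL22A1, a collagen of tissue junctions, had 5 and 14 counts, and its counting interval (0.17 to 3.55) left out 0. COL13A1 and COL20A1 each had 6 and 2 counts. The count of 3 that serves as a floor is 0.126 CPM with vector and 0.149 CPM with PKP2.

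The enzymes and the chaperone had a median ratio of 0.10, and all 10 measured genes were within 2-fold (beside 14859 of all 15991 genes). Of the 6 hydroxylases, all but P4HA3 stood above the lysyl oxidases per length in both libraries, and their ratios lay between -0.09 and 0.48. P4HA1 (ENSG00000122884), the main catalytic subunit of prolyl 4-hydroxylase, had 2406 and 2346 counts and a log2 ratio of 0.20 (interval 0.12 to 0.28). P4HA2 had 897 and 760 counts and a log2 ratio of -0.00, and P4HA3 155 and 171, a ratio of 0.38 (interval 0.06 to 0.70). PLOD2 (ENSG00000152952), the lysyl hydroxylase of the telopeptides whose product favours stable crosslinks, had 963 and 1143 counts. Its ratio of 0.48 (interval 0.36 to 0.61) was the highest of the 6 hydroxylases and became 0.23 after the GC correction. PLOD1 had 3718 and 3087 counts and a ratio of -0.03. PLOD3, which also glycosylates hydroxylysine, had 4130 and 3303 counts and a ratio of -0.09, which became 0.29 after the GC correction. SERPINH1 (ENSG00000149257), the collagen chaperone, had 976 and 1044 counts and a log2 ratio of 0.33 (interval 0.21 to 0.46), and 0.60 after the GC correction.

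The lysyl oxidases went both ways. LOXL2 (ENSG00000134013), which crosslinks type IV collagen and is secreted by many carcinomas, had 772 and 344 counts, 1.90-fold lower (interval 1.68 to 2.17). It shares exon positions on the same strand with ENTPD4, which had a ratio of 0.32. LOXL3 (ENSG00000115318) had 62 and 100 counts, 1.90-fold higher (interval 1.37 to 2.65). LOXL1, which acts on elastic fibres, had 90 and 53 counts and a log2 ratio of -0.53 (interval -1.05 to -0.02), and 0.07 after the GC correction. LOX and LOXL4 fell under the count minimum, with 7 and 11 and with 5 and 0 counts. LOXL3 shares exon positions with DOK1 and HTRA2 on the opposite strand, which had ratios of -0.56 and -0.23.

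Among the glycoproteins 9 were measured, THBS1 alone was past 2-fold, in the lower direction (11.1%, beside 4.61% of all genes), with a class median of -0.14. FN1 had a ratio of 0.10 (interval 0.09 to 0.11), which became -0.01 after a correction for transcript length. FBN1 (ENSG00000166147), the main component of microfibrils, had 1022 and 1087 counts and a log2 ratio of 0.33 (interval 0.20 to 0.45), and FBN2 56 and 43 counts and a log2 ratio of -0.14. FBLN1, a fibulin that binds fibronectin, had 205 and 99 counts and a log2 ratio of -0.81 (interval -1.17 to -0.46). FBLN5, which guides elastic fibre assembly, had 69 and 47 counts and FBLN7 100 and 97, with intervals that took in 0. THBS1, a matricellular activator of latent TGF-beta, had only 29 and 7 counts and a log2 ratio of -1.81 (interval -3.25 to -0.59). THBS3 (ENSG00000169231) was the most abundant thrombospondin, with 708 and 353 counts and a ratio of -0.77 (interval -0.96 to -0.58). It overlaps MTX1 on the opposite strand, which had a ratio of -0.43. On either strand, 18.2% of the 31-base stretches of THBS3 occur in another gene with counts, a share that can include this overlap. THBS4 had 15 and 14 counts and FBN3 1 and 1.

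Base composition moved with the ratios across the whole data set and also among the members. Over genes averaging at least 100 counts the smoothed ratio went from 0.20 at 40% transcript GC content to -0.02 at 50%, -0.31 at 60% and -0.51 at 65%. The measured members had a median GC content of 55.4%, beside 48.5% over all measured genes, and the fibrillar and other collagens medians of 60.3% and 63.2%. With this curve subtracted, 4 members were at least 2-fold lower (8.89%, beside 3.49% of all genes) and 2 higher (beside 2.35%). The lower genes were COL3A1 (-1.24), COL24A1 (-1.41), COL15A1 (-1.75) and THBS1 (-1.89), and the higher ones COL8A1 (1.32) and LOXL3 (1.11). The 4 genes that were at least 2-fold lower only without the correction were then at -0.87 (COL1A1), -0.66 (COL16A1), -0.56 (COL18A1) and -0.39 (COL9A3). Of the genes within 2-fold, COL5A1 was then at -0.67, COL27A1 at -0.40, COL9A2 at -0.46 and COL11A2 at -0.32. The class medians were then -0.67 for fibrillar, 0.05 for network, -0.42 for other collagens, 0.23 for enzymes and chaperone and -0.11 for glycoproteins. The fibrillar chains other than COL5A2 had a median of -0.77, where it was -1.10 without the correction. This subset was not among the planned classes and leaves out the only fibrillar chain with a ratio above 0.

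**Figure D4:**
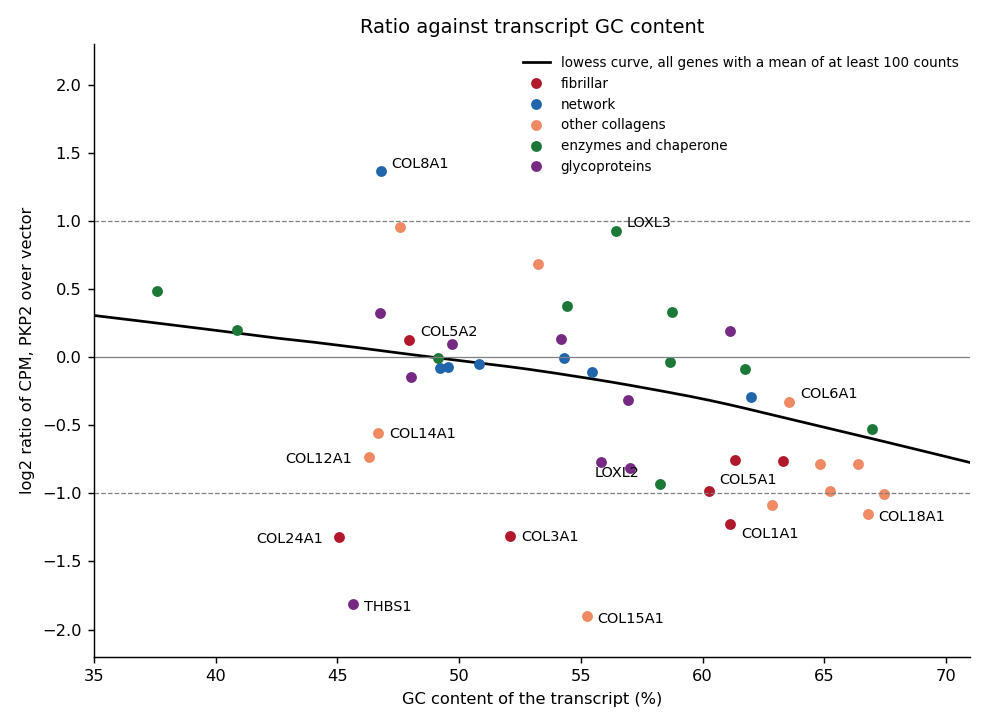
Log2 ratio of CPM in the PKP2 library over the vector library (y axis) against GC content of the transcript in percent (x axis) for the 45 measured members, 1 point per gene, with colours for classes and dashed lines at 2-fold. The black line is the lowess curve over all genes averaging at least 100 counts. COL3A1, COL24A1, COL12A1, COL14A1 and THBS1 lie well under the curve at GC contents of 45.1% to 52.1%, and COL8A1 lies above it.

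Other genes of collagen production mostly stayed within 2-fold, as did 14859 of all 15991 measured genes. Of 27 genes of procollagen processing and export 24 were measured, 2 were at least 2-fold lower (8.33%, beside 4.61% of all genes), none higher, and the median was -0.01. TLL1, a protease of the BMP1 family that removes procollagen C-propeptides, had 99 and 12 counts and a log2 ratio of -2.81 (interval -3.81 to -1.94), and COLGALT2, a galactosyltransferase of hydroxylysine, had 114 and 30, a ratio of -1.69. Their more abundant relatives BMP1 (-0.15; 544 and 417 counts) and COLGALT1 (0.04; 3143 and 2750 counts) were picked with their values in view. TLL2 (-0.66, with only 13 and 7 counts) and the zinc transporter SLC39A13 (0.59) were next.

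Of 32 other interstitial matrix genes 22 were measured, with a median of -0.11. EMILIN2, a glycoprotein of elastic fibres (-1.86; 252 and 59 counts), the proteoglycan VCAN (-1.36; 413 and 137 counts) and the basement membrane proteoglycan AGRN (3849 and 1633 counts, at the threshold) were at least 2-fold lower, 13.6% beside 4.61%. MATN3, a matrilin of cartilage (1.30; 34 and 71 counts), was higher, 4.55% beside 2.47%. After the GC correction EMILIN2 was at -1.72, VCAN at -1.49 and AGRN at -0.37. All 13 measured collagen receptors and uptake genes were within 2-fold (beside 14859 of all 15991 genes), with a median of 0.11. The collagen-binding integrin genes ITGA1 (0.75; 235 and 336 counts) and ITGA2 (-0.80; 659 and 322 counts) lay on opposite sides of 0, and ITGAV (0.59) and the receptor kinase DDR1 (-0.55) followed. Of 18 measured genes of collagen transcription and TGF-beta signalling, with a median of 0.15, only the transcription factor gene CEBPB was at least 2-fold lower (-1.05; 2063 and 845 counts, and -0.49 after the GC correction), 5.56% beside 4.61% of all genes. TGFB2 (0.93), SNAI1 (-0.92) and CCN2 (0.75) were the farthest from 0 among the rest.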

How the data were processed

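Per the labels' protocols, the 2 libraries were built from total RNA of H460 cells with Illumina's TruSeq chemistry. Bowtie 0.12.2 and the builds GRCh37 and hg19 appear in the submitters' processing notes. How genes were counted, from which annotation and with or without strand, is not given in the sources used here, so reads of overlapping genes cannot be told apart. The deposited values are treated as estimated counts, unnormalized, with 1 row for each Ensembl gene. They were whole numbers once 2 rows without a readable count, 1 of them that of TGFB1, were left out of each file.

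Library sizes were total counts times edgeR's TMM factors (edgeR 4.0.16, R 4.3.3). Single genes have exact binomial (Clopper-Pearson) 95% intervals of the 2 counts, pairs of genes exact conditional odds-ratio intervals. The labels name no molecular identifiers, so reads are not taken as independent molecules and intervals cover counting error only. No p-value was computed, since 1 library per group gives no spread. Genes were called by a mean of at least 10 counts and 2-fold. Members with a mean of at least 100 counts, or past 2-fold, were named, as were up to 4 genes per related list with ratios farthest from 0. Partner chains of described collagens (COL6A3, COL8A2 and COL9A2) were named too. LOXL1, LOXL3, FBLN5, FBLN7, FBN2, THBS4, COL11A2, COL22A1 and COL28A1 fall outside this rule and were named with their values in view. LOX, LOXL4, FBN3, COL13A1 and COL20A1, under the count minimum, also fall outside it and were named with their counts. The members and lists were chosen with earlier results of these data known. Symbols matched 22579 IDs.

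Transcript length, GC content (APPRIS principal, otherwise longest transcript), exon overlaps and shared 31-base stretches came from GENCODE 29, a later build, used by gene ID. The GC and length corrections subtracted a lowess curve (fraction 0.3, genes averaging at least 100 counts; statsmodels 0.14.6). Promoters were those of RefSeq, GRCh38.p14, and no protein sequences were used. Other alternatives were other scalings, filters, pseudocounts and thresholds (DESeq2 1.42.0 for size factors). In simulated libraries (PKP2 over vector, 16030 genes) all 50 genes made 3-fold higher and all 50 made 3-fold lower were found past 2-fold. The interval held 0 for 95.5% of unchanged genes. The simulated counts held counting error only, with no spread between cultures and no GC trend. The simulation thus checks the calculation and says nothing on how far the calls would repeat in other cultures.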

Additional observations from a re-analysis of the deposited data

How the results depend on the processing

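The 8 members at least 2-fold lower became 4 after the GC correction and 4 without the members that share exon positions with another gene (an alternative chosen after seeing the data). They became 1 with 1 CPM or 5 CPM added, 2 at a mean of at least 100 counts, 2 at 3-fold, 18 at 1.5-fold and 1 where the whole counting interval had to lie beyond 2-fold. The number was 10 with total counts, 7 with DESeq2's size factors, 8 after the length correction and 11 with no filter on low counts. The 1 member higher became 2 after the GC correction, 4 with no filter on low counts, 4 at 1.5-fold and 0 at 3-fold. Over all genes the lower share was 3.49% after the GC correction, 12.9% at 1.5-fold and 1.8% at a mean of at least 100 counts. The higher share over all genes was 2.35% after the GC correction and 6.87% at 1.5-fold. For the other settings named here the share over all genes was not computed. With 5 CPM added the median of the other collagens was -0.32. The median of the network class was 0.05 after the GC correction and its mean 0.11. That of the glycoproteins was 0.10 without members that share exon positions. The median of all members ranged from -0.34 (their mean) to -0.06 (GC correction). In the other classes no alternative changed the sign of the median. Of the 35 members averaging at least 100 counts or past 2-fold, some changed sign. Among those whose counting interval left out 0, PLOD3 (0.29), COL4A2 (0.091) and COL6A1 (0.12) did so after the GC correction. FN1 (-0.012) did so after the length correction. PLOD1, COL4A1, COL4A6 and P4HA2, whose intervals took in 0, also changed sign after the GC correction. P4HA2 did so after the length correction too, and P4HA2 and COL4A6 with DESeq2's size factors. LOXL1, outside these 35 and with an interval that left out 0, went from -0.53 to 0.07 after the GC correction. With total counts, 33 of the 35 ratios stayed within their counting interval, and with DESeq2's size factors or 1 CPM added all 35 did. After the GC correction only 18 of the 35 did, after the length correction 28, and with 5 CPM added 26. Adding CPM shrinks the ratios of low genes by construction; the cause of the other changes was not tested. No paired analysis was possible because each group has 1 library. Depth limits COL9A3, COL15A1, COL24A1 and THBS1, whose counts in the PKP2 library were 11, 5, 19 and 7.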

Other observations

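Few non-coding genes named after a member had counts. LOXL1-AS1, an antisense RNA at the elastic fibre crosslinker LOXL1, had 69 counts with vector and 65 with PKP2, a log2 ratio of 0.15 (counting interval -0.36 to 0.66). THBS3-AS1 had 32 and 18 counts and a ratio of -0.59 (interval -1.51 to 0.28). COL4A2-AS1, FBN1-DT and THBS4-AS1 had at most 2 counts in a library. Whether the counting used strand is not given in the sources used here, so reads of these genes and of their sense partners cannot be told apart.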
